A study of Mus musculus with 10 samples.

Results

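Immunoglobulin heavy chain variable (Ighv) segments were followed in RNA of flushed femur from young and aged mice. Members were selected on their measured counts: a row of the count table was taken when its symbol began with Ighv, its biotype was IG_V_gene and its counts summed over all 10 libraries reached 20. This gave 95 of 108 such rows, of 38962 genes in the table. All mice were C57BL/6J males with no other allele or agent, 5 at an age of 2 months (young) and 5 at 22 months (aged), and each gave 1 library. Young mice were bought from the Jackson Laboratory, whereas aged ones came from the National Institute of Aging colony and reached their final age in house, so supplier and age cannot be told apart. The bone was flushed before it was pulverized, and the RNA is of whole cortex with the cells that remained in it.

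Each B cell joins 1 of many Ighv segments to a D and a J segment, under the recombinase genes Rag1 and Rag2, and then transcribes the joined exon together with a constant gene such as Ighm. The daughters of that cell keep the joined segment, so a segment shared by many sister cells, or by a few plasma cells that make much antibody RNA, can take a large part of the Ighv reads of a tissue. The segments fall into families of related sequence, of which Ighv1 (J558) is the largest in the mouse. The members lay between 113578504 and 116000461 of chromosome 12 (GRCm38), all on the minus strand, with the Ighv5 and Ighv2 families near the D segments and most of Ighv1 far from them.

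The germline sequences below are those of the segments that led an aged library, together with Ighv1-80 and Ighv5-16, which came next in aged 2 and in aged 1. Each line gives the last 120 bases of the GENCODE vM21 transcript (GRCm38), read 5′ to 3′, and the capitals run from the conserved cysteine codon to the end of the segment, where the join to D is made.

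Ighv4-1: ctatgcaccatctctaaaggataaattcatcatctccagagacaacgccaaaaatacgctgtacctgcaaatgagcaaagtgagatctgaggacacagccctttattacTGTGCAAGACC
Ighv1-80: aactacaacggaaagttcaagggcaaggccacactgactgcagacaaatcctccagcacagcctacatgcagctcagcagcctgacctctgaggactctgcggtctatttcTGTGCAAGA
Ighv6-3: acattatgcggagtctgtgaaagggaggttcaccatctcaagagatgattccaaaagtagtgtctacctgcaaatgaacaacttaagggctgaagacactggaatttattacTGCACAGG
Ighv7-3: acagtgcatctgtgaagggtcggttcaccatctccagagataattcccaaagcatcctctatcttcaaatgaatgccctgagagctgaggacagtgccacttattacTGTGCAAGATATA
Ighv5-16: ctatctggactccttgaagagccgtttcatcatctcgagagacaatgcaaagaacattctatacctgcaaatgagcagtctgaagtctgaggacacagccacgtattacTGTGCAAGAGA
Ighv1-53: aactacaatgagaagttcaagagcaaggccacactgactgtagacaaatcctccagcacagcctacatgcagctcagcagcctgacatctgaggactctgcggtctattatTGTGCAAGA
Ighv1-63: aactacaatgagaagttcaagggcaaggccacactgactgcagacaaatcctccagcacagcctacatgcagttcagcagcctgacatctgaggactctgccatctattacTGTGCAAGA

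Ighv4-1 lay at chr12:113948282-113948796, Ighv6-3 at chr12:114391712-114392169, Ighv7-3 at chr12:114153180-114153644, Ighv5-16 at chr12:113838526-113839010, Ighv1-53 at chr12:115158403-115158835, Ighv1-63 at chr12:115495625-115496058 and Ighv1-80 at chr12:115912344-115912776. These segments did not share a family: Ighv1-53, Ighv1-63 and Ighv1-80 are of Ighv1, and the others are of 4 families. The segments that led a young library are shown in the same way for comparison.

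Ighv9-3: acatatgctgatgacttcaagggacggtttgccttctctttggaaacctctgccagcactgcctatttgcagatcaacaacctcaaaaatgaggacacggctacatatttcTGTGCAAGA
Ighv1-76: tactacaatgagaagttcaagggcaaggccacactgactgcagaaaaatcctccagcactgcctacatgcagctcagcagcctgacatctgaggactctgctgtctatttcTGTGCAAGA
Ighv1-9: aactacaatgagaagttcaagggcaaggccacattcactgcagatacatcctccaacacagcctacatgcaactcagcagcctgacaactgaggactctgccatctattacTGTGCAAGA
Ighv1-26: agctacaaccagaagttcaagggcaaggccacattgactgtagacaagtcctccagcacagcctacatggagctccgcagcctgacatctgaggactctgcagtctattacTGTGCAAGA

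Ighv9-3 lay at chr12:114140692-114141122, Ighv1-76 at chr12:115847881-115848331, Ighv1-9 at chr12:114583569-114584002 and Ighv1-26 at chr12:114788372-114788805. Other segments carried calls in the comparison of ages and are given here for the same stretch: Ighv11-2 at chr12:114048241-114048812, Ighv14-3 at chr12:114059845-114060321, Ighv1-39 at chr12:114914599-114915032 and Ighv1-82 at chr12:115952538-115953005.

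Ighv11-2: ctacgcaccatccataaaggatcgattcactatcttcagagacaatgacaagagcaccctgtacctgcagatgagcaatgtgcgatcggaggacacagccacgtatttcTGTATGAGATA
Ighv14-3: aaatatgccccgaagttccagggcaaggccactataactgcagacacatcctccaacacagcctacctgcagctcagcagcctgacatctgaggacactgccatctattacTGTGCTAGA
Ighv1-39: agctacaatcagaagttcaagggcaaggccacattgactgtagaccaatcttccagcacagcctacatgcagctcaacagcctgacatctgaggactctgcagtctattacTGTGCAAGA
Ighv1-82: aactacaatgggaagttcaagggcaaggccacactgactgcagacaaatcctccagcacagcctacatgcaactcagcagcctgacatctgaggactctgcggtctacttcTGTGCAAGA

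The segments are close relatives, which limits how surely a read can be given to 1 of them. Over its aligned bases a member was 94.2% identical to the nearest other member in the median (range 74.5% to 98.6%). Of the 95 members, 82 had at least 90% of their 100-base windows unique among the Ighv transcripts and 67 had all of them unique. Ighv4-1 (75.6% identical to Ighv5-17) and Ighv11-2 (74.5% identical to Ighv5-12) had the most distant nearest members among the segments shown, yet only 95.6% and 82.6% of their 100-base windows were unique among the Ighv transcripts. In contrast, Ighv1-26 was 96.9% identical to Ighv1-18 over 351 aligned bases. The bases of a tyrosine or phenylalanine codon (TAT or TAC, or TTT or TTC) followed directly by those of a cysteine codon (TGT or TGC) were looked for. They were present on the coding strand in the last 30 bases of 94 members (98.95%) and of 6.77% of 141530 other GENCODE transcripts. The reading frame was not checked in either set, and the last bases of other transcripts need not be coding. The sources used here do not say how reads that match several segments were counted. Somatic mutation, which changes expressed segments in mature cells, was not measured.

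The libraries held 33447009 to 40395050 counts in young and 31788232 to 45075335 in aged mice. The library of aged 2 stood apart, with 16636 Ighv counts, and 39 of the 95 members had their highest count there, so the comparisons per mouse and the largest segments are also given without it. The 95 members held 1028 to 1827 counts in a young library and 1035 to 16636 in an aged one. Markers of the labelled tissue were present, and 8 of 8 osteoblast and osteocyte genes were tested. Their summed level was 42620 to 90400 CPM (counts scaled to library size) in young and 18380 to 45270 CPM in aged bone. These genes differed widely in level. The collagen gene Col1a2 alone had a mean of 21060 CPM in young and 8547 CPM in aged bone, and Bglap2 of 178.8 and 45.6 CPM. Markers of other cells were also present, and they differed between aged mice. Neutrophil genes summed to 1676 to 2495 CPM in young mice and to 1946, 4599, 1366, 2773 and 2177 CPM in aged 1 to 5, highest in aged 2 and aged 4 and lowest in aged 3. Skeletal muscle genes summed to 6450 to 20000 CPM in young mice and to 17190, 14640, 23930, 9206 and 19130 CPM in aged 1 to 5, highest in aged 3 and lowest in aged 4. Red cell precursor genes summed to 4367 to 9332 CPM in young mice. They summed to 4362, 9644, 4024, 3256 and 5072 CPM in aged 1 to 5, highest in aged 2 and lowest in aged 4. In bulk bone, fewer cells of a type and less RNA per cell cannot be told apart.

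In young bone no segment held more than 5.69% of the Ighv counts of a mouse, and in aged bone a few segments held much of the signal. The mean share of a member in young mice ran from 0.0619% to 4.06%. The mean CPM of the members in young mice spanned a 61.9-fold range. Which segments these were differed from mouse to mouse. Levels are in CPM with library sizes corrected by edgeR's TMM factors, and a share is the percent of a library's Ighv counts. The summed Ighv level was 34.0, 40.4, 35.6, 38.1 and 31.3 CPM in young 1 to 5. It was 69.6, 331, 39.3, 143.8 and 54.1 CPM in aged 1 to 5. The aged mice overlapped the young only through aged 3, which lay below young 2. Among the aged mice the level was highest in aged 2 and aged 4 and lowest in aged 3. The neutrophil, heavy chain constant, light chain variable, D and J, plasma cell, and antibody folding and secretion genes had the same highest and lowest mice. The other lists did not. Among them, red cell precursor genes were highest in aged 2 and lowest in aged 4, and mature B cell markers highest in aged 4 and lowest in aged 5. The part of these genes in the result was not tested. The mean was 35.9 ± 3.55 CPM in young and 127.6 ± 120.6 CPM in aged mice (SD, n = 5 each; exact permutation test, two-sided, p = 0.0159), which is 3.55-fold higher. Without aged 2 the aged mean was 76.7 ± 46.4 CPM (2.14-fold, n = 4, exact permutation p = 0.0317), and with libraries scaled by their total counts alone the difference did not pass (exact permutation p = 0.0714).

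The evenness of use was lower in every aged mouse than in every young mouse. The effective number of segments is the number of equally used segments that give the same chance of drawing the same segment in 2 draws. That chance is estimated without bias at any depth, which does not hold exactly for its inverse, the number given here. It was 56.9, 55.1, 50.9, 48.8 and 54.1 in young 1 to 5 and 23.4, 4.52, 35.7, 21.4 and 28.4 in aged 1 to 5. The groups did not overlap. The mean was 53.2 ± 3.26 in young and 22.7 ± 11.6 in aged mice (SD, n = 5 each; exact permutation test, two-sided, p = 0.00794, the smallest this design allows). Without aged 2 the aged mean was 27.2 ± 6.38 (n = 4, exact permutation p = 0.0159). With the leading segment of each library left out, the means were 54.4 in young and 26.7 in aged mice.

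The number of segments seen was also lower in aged bone once depth was made equal. Thinned to 1028 Ighv counts, a young library was expected to show 91.8 ± 0.35 of the 95 segments and an aged library 78.8 ± 6.68 (SD, n = 5 each; exact two-sided permutation test, p = 0.00794). The aged values were 81.3, 66.9, 83.0, 81.1 and 81.7, all below the lowest young value of 91.2. In the order of use within each mouse, 50% of the Ighv counts were reached with 17 to 20 segments in young and 2 to 14 in aged mice. At full depth 87 members had a count in every young library and 76 in every aged library.

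**Figure D1:**
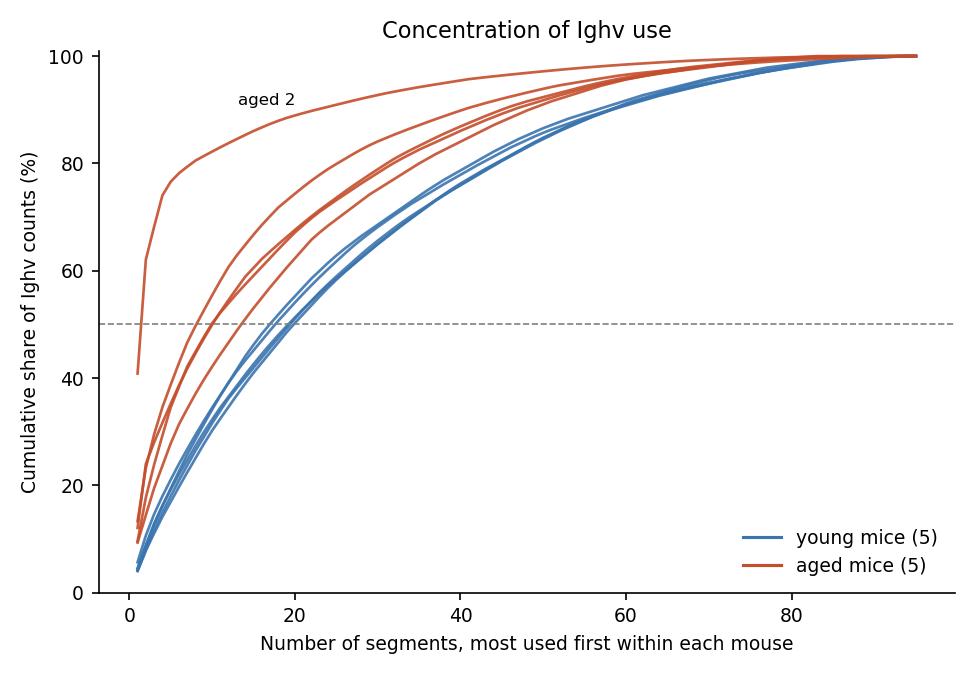
Cumulative share of Ighv counts (vertical axis, percent) against the number of segments, ordered from the most used within each mouse (horizontal axis), with 1 line per mouse. The dashed line marks 50%, which the young mice reached with 17 to 20 segments and the aged mice with 2 to 14.

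**Figure D2:**
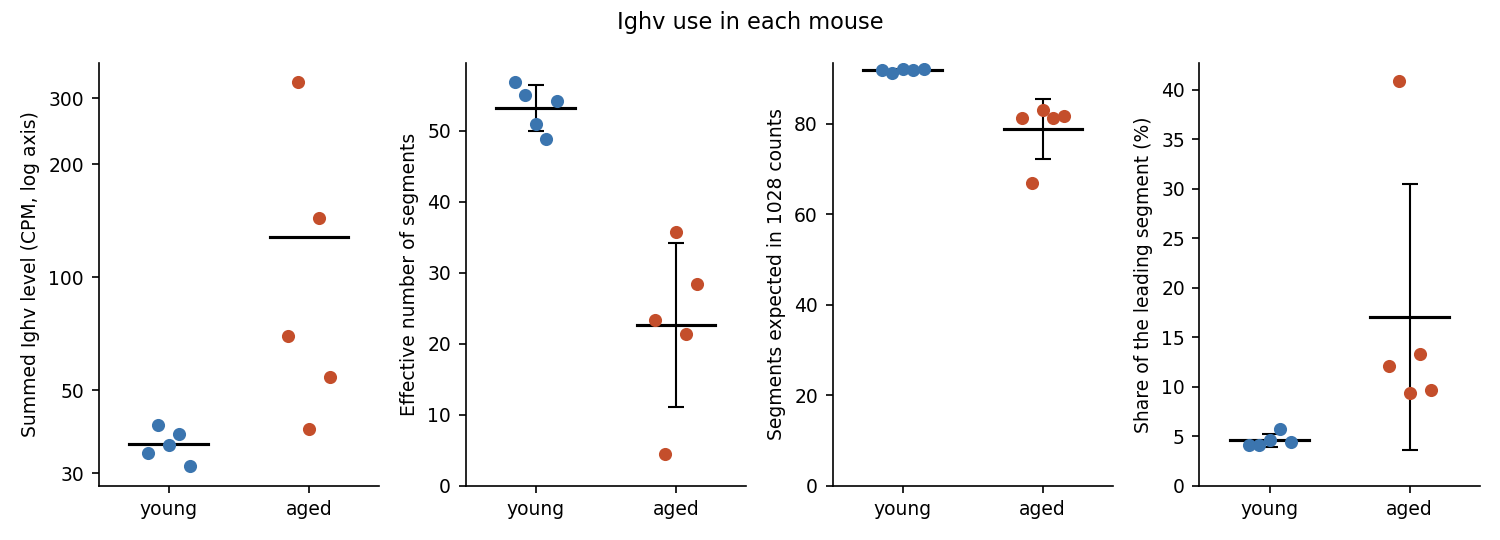
Summed Ighv level (CPM, log axis), effective number of segments, segments expected in 1028 counts and share of the leading segment (percent) in young and aged mice. Points are mice, lines are means and bars are SD (not drawn on the log axis), and the groups do not overlap in the last 3 panels.

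The segment with the most counts took a larger share in each aged mouse than in each young mouse. In young 1 to 5 the leaders were Ighv9-3 (4.07%), Ighv1-76 (4.11%), Ighv1-76 (4.57%), Ighv1-9 (5.69%) and Ighv1-26 (4.45%). In aged 1 to 5 they were Ighv7-3 (12.1%), Ighv4-1 (40.9%), Ighv1-53 (9.37%), Ighv6-3 (13.3%) and Ighv1-63 (9.63%), a different segment in each mouse. The mean was 4.58 ± 0.66% in young and 17.1 ± 13.4% in aged mice (SD, n = 5 each; exact permutation test, two-sided, p = 0.00794). Without aged 2 the aged mean was 11.1 ± 1.93% (n = 4, exact permutation p = 0.0159). The 95% Wilson intervals of the leading shares, which cover counting error only, ran from 7.74% to 11.3% in aged 3, the aged mouse with the smallest leading share, and from 4.72% to 6.85% in young 4, the young mouse with the largest.

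A share of at least 5% was reached by 13 segments in aged mice, in 18 pairs of a segment and a mouse, and by 1 pair in young mice, which was Ighv1-9 in young 4. Of the 13 segments, 9 reached it in 1 aged mouse, 3 (Ighv4-1, Ighv1-53 and Ighv14-4) in 2, and Ighv6-3 in 3. In aged 2, Ighv4-1 (40.9%), Ighv1-80 (21.2%), Ighv1-15 (6.12%) and Ighv6-3 (5.84%) together held 74.1% of the Ighv counts. In aged 1, Ighv7-3 (12.1%) stood beside Ighv5-16 (11.9%), and both were under 3% in every young library and in the other aged libraries. In aged 4, Ighv6-3 (13.3%) was followed by Ighv1-69 (9.94%), Ighv14-4 (6.24%) and Ighv11-2 (5.05%). Aged 5 shared Ighv6-3 (8.14%) and Ighv14-4 (5.24%) with aged 4, and held Ighv1-63 (9.63%), which was at 0.0754% to 0.486% in young mice. The summed level outside the segments at or over 5% was 35.5 CPM in young and 59.98 CPM in aged mice (exact two-sided permutation test, n = 5 each, p = 0.127). The segments left out were picked as high in these same libraries. They held 19.5% to 74.1% of the Ighv counts of an aged mouse and at most 5.69% of a young one. The smaller difference is thus partly set by the pick.

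**Figure D3:**
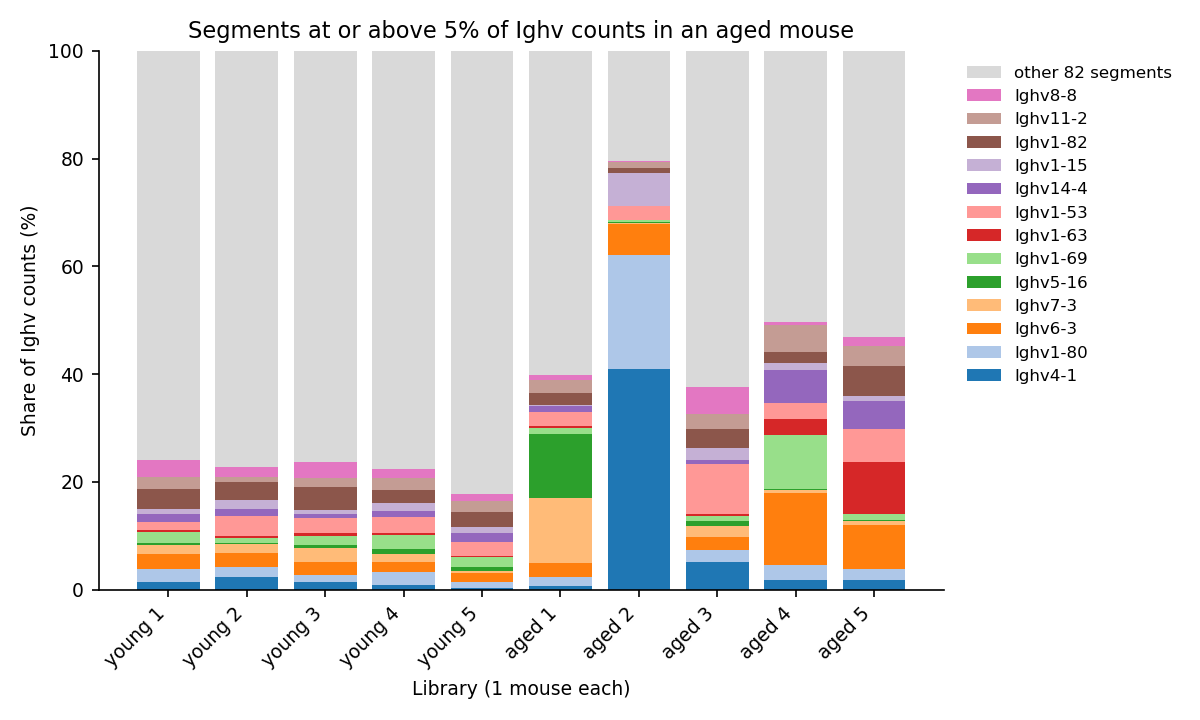
Share of each library's Ighv counts (vertical axis, percent) held by the 13 segments that reached 5% in an aged mouse, stacked, with the other 82 segments in grey. Ighv4-1 and Ighv1-80 fill most of aged 2, whereas the large segments of aged 1, aged 3, aged 4 and aged 5 are mostly others.

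The nearest members of the large segments were low in the same libraries, at 0 to 2.01% of Ighv counts over the 18 pairs of aged mice. Relatives outside the 95 members were not looked at. Ighv4-1 and Ighv11-2 shared 100-base windows with other Ighv transcripts, although their nearest members were only 75.6% and 74.5% identical. So did Ighv8-8 (90.7% of windows unique), Ighv1-53 and Ighv1-69 (97.6% each) and Ighv1-63 (98.8%). In aged 2, where Ighv1-80 held 3534 counts, its nearest member Ighv1-82 (95.4% identical) had 135. In aged 1, Ighv7-3 held 301 counts and Ighv7-4 (93.9% identical) had 3. In aged 4, Ighv14-4 held 383 counts and Ighv14-1 (97.4% identical) had 25. In each of these named pairs the large share thus lay on 1 row. This was not shown for the segments that shared windows, Ighv4-1 and Ighv11-2 among them.

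Segment use was alike among young mice and unlike among aged mice. The Morisita index compares the proportions in a pair of libraries, corrected for counting, and is about 1 where they are the same. Over the 10 pairs of young mice its median was 0.908 (0.819 to 0.947). Over the 10 pairs of aged mice it was 0.380 (0.0906 to 0.744), and over the 25 pairs of a young and an aged mouse 0.535 (0.0831 to 0.820). The most alike aged pair was aged 4 and aged 5, and aged 2 was under 0.28 with each other aged mouse. Aged 3 was the aged mouse nearest to the young ones, at 0.714 to 0.820. Since pairs share mice, these values are a description.

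In young bone the segments with the highest mean share per kilobase of annotated length were Ighv1-26, Ighv8-12, Ighv9-3, Ighv1-82 and Ighv1-81, in that order. Their mean shares per kilobase, with the members' shares per kilobase summing to 100, were 4.24 ± 0.71%, 3.38 ± 0.70%, 3.26 ± 1.18%, 3.14 ± 0.75% and 3.06 ± 0.37% (SD, n = 5). Ighv1-26 lay above Ighv8-12 by more than the SD of either, and the other neighbours in the order differed by less than their SD. In aged bone the order was Ighv4-1, Ighv6-3, Ighv1-80, Ighv1-53 and Ighv1-26, at 9.15 ± 15.9%, 6.68 ± 4.64%, 6.43 ± 9.26%, 4.95 ± 3.10% and 3.61 ± 1.09%. For Ighv4-1 and Ighv1-80 the SD exceeded the mean, and aged 2 was far above the others. Without aged 2 the order was Ighv6-3 (6.80 ± 5.35%), Ighv1-53 (5.50 ± 3.29%), Ighv1-26 (4.09 ± 0.32%), Ighv7-3 (3.94 ± 5.63%) and Ighv1-63 (3.52 ± 4.54%; SD, n = 4). Ighv1-80 was then at 2.29 ± 0.51% and Ighv4-1 at 2.07 ± 1.70%, in places 14 and 17. Neighbours in either aged order differed by less than the larger of their SDs. Over the 95 members the mean share per kilobase in young and in aged mice had a Spearman rho of 0.786, a value that rests on the same 10 libraries and on counts that are small for many members. The mean share was lower in aged mice for 72 members and higher for 23.

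A lower share did not always go with a lower level. Ighv8-12 held 3.30% of Ighv counts in young and 1.46% in aged mice, but its level was 1.17 ± 0.18 CPM in young and 1.19 ± 0.34 CPM in aged mice (log2 fold change 0.03, adjusted p = 0.943). Ighv1-81 likewise held 2.93% and 1.26% of the counts at levels of 1.05 ± 0.16 and 1.25 ± 0.73 CPM (log2 fold change 0.28, adjusted p = 0.612). The mean level was lower in aged bone for 25 members and higher for 70. By the median level of each group, which 1 high mouse moves less, 61 members were higher in aged bone.

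Single segments were compared with the quasi-likelihood test of edgeR, with p adjusted by Benjamini-Hochberg over all 22088 tested genes. A gene was called where the change was 1.5-fold or more and the adjusted p did not exceed 0.05. Of the 95 members, 54 passed the filter on low counts. Of these, 7 were called higher in aged bone (13.0%), against 2.64% of all tested genes, and 0 were called lower, against 2.72% of all tested genes. At an unadjusted p under 0.05, 24 members were higher and 0 lower, and DESeq2 and limma-voom also called 0 lower. No share of all tested genes was taken at that threshold or for those tools. Such counts, here and for the gene lists below, thus cannot be set against the whole table. The log2 fold change was above 0 for 45 of the 54 and its median was 0.98, while the median of all tested genes was 0.01. The filter asked for the level of the minimum count, 0.258 CPM, in at least 5 libraries of either group. Of the 54, 14 were over it in fewer young than aged libraries, by CPM with the TMM factors, which the filter did not use. The 29 that were over it in every young library held 5 of the 7 calls and had a median log2 fold change of 0.85.

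Ighv1-53, an Ighv1 segment, had the smallest p. It was at 0.462, 1.54, 0.971, 1.13 and 0.825 CPM in young 1 to 5 and at 1.90, 8.40, 3.68, 4.13 and 3.32 CPM in aged 1 to 5. All aged mice lay above all young mice. Its log2 fold change was 2.12 ± 0.39 (SE; edgeR, adjusted p = 0.00827).

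Ighv14-3, of a small family, was at 0.231, 0.277, 0.277, 0.271 and 0.236 CPM in young and at 0.559, 0.975, 0.380, 0.633 and 0.861 CPM in aged mice. The young values were close together and all aged values lay above them. In the fit, its log2 fold change was 1.41 ± 0.30 (SE; edgeR, adjusted p = 0.0124).

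Ighv11-2 is a segment known from B-1 cells, a self-renewing B cell population, many of which use it in antibodies to phosphatidylcholine. It was at 0.744, 0.378, 0.624, 0.814 and 0.637 CPM in young and at 1.68, 3.999, 1.10, 7.27 and 2.08 CPM in aged mice. Every aged mouse was above every young mouse, with aged 4 the highest. This was a log2 fold change of 2.34 ± 0.48 (SE; edgeR, adjusted p = 0.0150). Ighv12-3, the other segment known for this specificity, was at 0.179 ± 0.071 CPM in young and 0.235 ± 0.217 CPM in aged mice (SD, n = 5 each) and was too low to be tested.

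Ighv1-39 was at 0.257, 0.252, 0.277, 0.188 and 0.354 CPM in young and at 2.38, 2.73, 0.456, 0.773 and 0.380 CPM in aged mice. The groups did not overlap, but aged 5 lay just above young 5. The log2 fold change was 2.35 ± 0.56 (SE; edgeR, adjusted p = 0.0266). Ighv6-3, of the J606 family, was at 0.949, 1.03, 0.867, 0.752 and 0.472 CPM in young and at 1.79, 19.3, 0.949, 19.2 and 4.404 CPM in aged mice. It was high in aged 2 and aged 4, and aged 3 lay within the young range. This gave a log2 fold change of 3.50 ± 0.81 (SE; edgeR, adjusted p = 0.0276).

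Ighv1-82, the member farther from the D segments than any other named here, was at 1.31, 1.31, 1.53, 0.898 and 0.873 CPM in young and at 1.48, 2.69, 1.40, 2.74 and 2.94 CPM in aged mice. Aged 1 and aged 3 lay within the young range. The log2 fold change was 0.95 ± 0.26 (SE; edgeR, adjusted p = 0.0398). Ighv1-26, the segment with the highest share in young bone, was at 1.08, 1.54, 1.39, 1.90 and 1.39 CPM in young and at 2.46, 5.27, 1.63, 6.02 and 2.05 CPM in aged mice. Only aged 3 lay within the young range. The log2 fold change was 1.27 ± 0.34 (SE; edgeR, adjusted p = 0.0440).

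**Figure D4:**
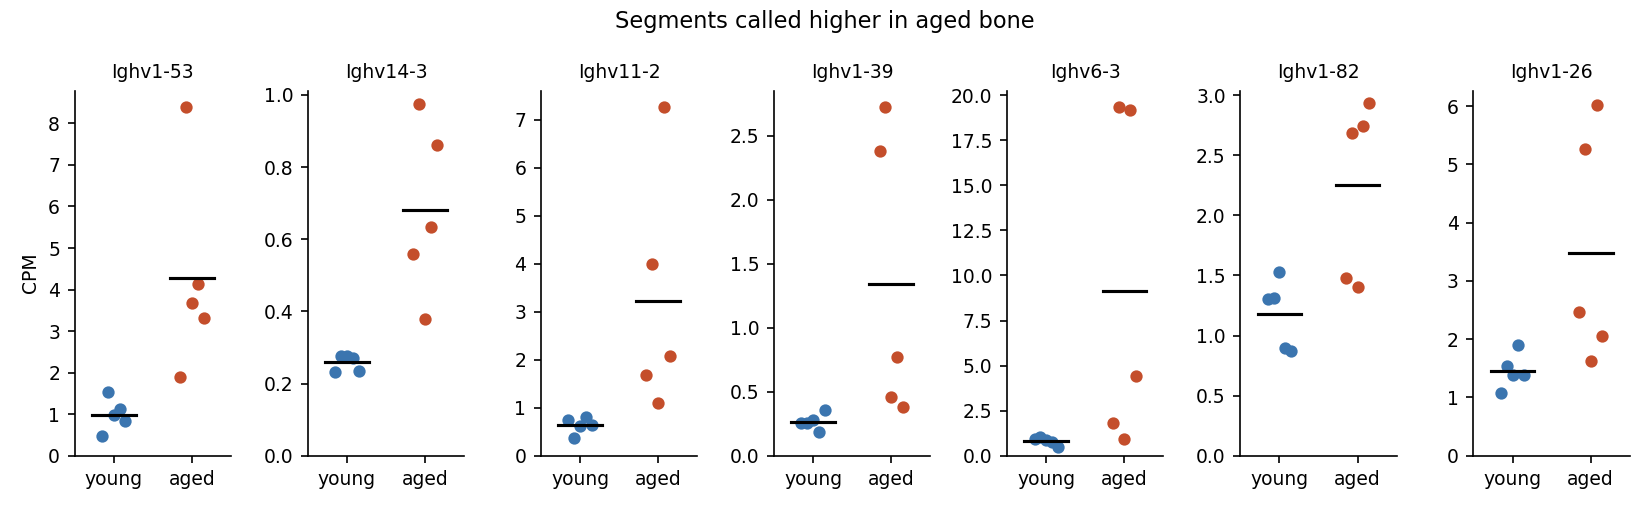
Level (CPM, linear axes that start at 0 and differ between panels) of the 7 segments called higher in aged bone, in order of p. Points are mice and lines are means, and the groups do not overlap for Ighv1-53, Ighv14-3, Ighv11-2 and Ighv1-39.

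Among the 54 tested members, 5 did not overlap between the groups with the aged mice higher (9.26%), against 3.68% of all tested genes, and 0 did so with the aged mice lower, against 4.12% of all tested genes. The calls of Ighv1-53 and Ighv11-2 stood under all 17 alternatives of the test, and that of Ighv14-3 under all 16 in which it was tested. The call was lost under 10 of 17 alternatives for Ighv6-3, 10 of 17 for Ighv1-26, 9 of 17 for Ighv1-82 and 6 of 16 for Ighv1-39. Without aged 2, 6 segments were called, 5 of them among the 7, and Ighv1-26 and Ighv1-82 were not. The number of calls was 4 without young 1, 4 without young 2, 3 without young 4 and 4 without aged 4.

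The 2 largest fitted changes were of Ighv4-1 and Ighv1-80, which were far higher in aged 2 than in any other library, and neither passed the test. Ighv4-1, the 1 member of the X24 family here, was at 0.462, 0.932, 0.520, 0.334 and 0.118 CPM in young and at 0.475, 135.2, 2.01, 2.58 and 0.962 CPM in aged mice. Its log2 fold change was 5.92 ± 1.92 (SE; edgeR, adjusted p = 0.0981), and 95.7% of its counts over the 10 libraries were in aged 2. Without aged 2 its log2 fold change was 1.68 (edgeR, adjusted p = 0.0833). Ighv1-80 was at 0.847, 0.756, 0.451, 0.898 and 0.354 CPM in young and at 1.15, 70.3, 0.911, 4.05 and 1.09 CPM in aged mice. The groups did not overlap, yet the log2 fold change of 4.54 ± 1.47 had an adjusted p of 0.0951 (SE; edgeR), and without aged 2 it was 1.45 (edgeR, adjusted p = 0.0788). Ighv1-15 had 82.2% of its counts in aged 2, where it was at 20.3 CPM, and was at 0.224 to 1.81 CPM in the other aged mice.

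Ighv7-3 was high in 1 aged mouse and Ighv1-63 in 2. Ighv7-3 was at 8.42 CPM in aged 1, at 0.159 to 0.797 CPM in the other aged mice and at 0.142 to 0.936 CPM in young mice (log2 fold change 1.87, edgeR adjusted p = 0.235). Ighv1-63 was at 0.280, 0.199, 0.152, 4.45 and 5.21 CPM in aged 1 to 5 and at 0.0236 to 0.173 CPM in young mice, and did not pass the filter on low counts. It was high in aged 4 and aged 5 and near the young range in the others.

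The members with the lowest fitted fold changes did not pass the test. Ighv1-78 was at 0.471 ± 0.229 CPM in young and 0.3004 ± 0.156 CPM in aged mice (log2 fold change -0.58, edgeR adjusted p = 0.394). Ighv1-76, which led young 2 and young 3, was at 1.08 ± 0.57 and 0.784 ± 0.111 CPM (log2 fold change -0.44, edgeR adjusted p = 0.444). Ighv8-6 was at 0.474 ± 0.179 and 0.369 ± 0.140 CPM (log2 fold change -0.32, edgeR adjusted p = 0.606). For each of them the young and aged ranges overlapped.

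Other segments with known use were not called. Ighv5-2 (VH81X), the functional segment nearest the D segments and one that developing B cells join often, was at 0.303 ± 0.120 CPM in young and 0.305 ± 0.154 CPM in aged mice (log2 fold change -0.01, edgeR adjusted p = 0.993). Ighv1-72 (VH186.2), known from the response to the hapten nitrophenyl, was at 0.745 ± 0.364 and 0.602 ± 0.234 CPM (log2 fold change -0.26, edgeR adjusted p = 0.708). Ighv7-1, known from antibodies to phosphorylcholine, was at 0.452 ± 0.342 and 0.448 ± 0.379 CPM, with its highest aged value in aged 2 (1.11 CPM). These errors are SD over 5 mice.

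Use by family was compared as the share of Ighv counts in each of the 9 families with at least 3 members, of 15 families in all, with p adjusted over the 9. The Ighv1 family (48 members) held 51.1, 56.1, 50.3, 56.8 and 56.5% in young 1 to 5 and 43.6, 41.8, 50.8, 46.3 and 50.2% in aged 1 to 5. The means were 54.1 ± 3.17% and 46.5 ± 3.98% (exact two-sided permutation test, p = 0.0159, adjusted p = 0.0714), and aged 3 lay above young 3. The Ighv6 family (3 members) held 3.57 ± 0.84% in young and 8.36 ± 4.399% in aged mice (exact permutation p = 0.0159, adjusted p = 0.0714). The Ighv8 family held 7.64 ± 0.76% and 3.82 ± 2.63%, and Ighv3 4.24 ± 0.78% and 2.81 ± 1.14% (exact permutation p = 0.0397, adjusted p = 0.0893, for each). No family passed at an adjusted p of 0.05, and the other families with 3 or more members had adjusted p of 0.186 to 0.984.

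Along the locus, the 47 members farther from the D segments than the median member held 52.9, 56.7, 54.7, 55.7 and 58.1% of Ighv counts in young 1 to 5. They held 40.4, 41.2, 55.6, 46.0 and 52.8% in aged 1 to 5. The mean was 55.6 ± 1.99% in young and 47.2 ± 6.80% in aged mice (exact two-sided permutation test, n = 5 each, p = 0.0317), with aged 3 inside the young range. This did not hold under 8 of 15 alternatives, among them leaving out aged 2 (exact permutation p = 0.0635). Called segments lay in both parts, 3 of 26 tested near the D segments and 4 of 28 tested far from them.

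**Figure D5:**
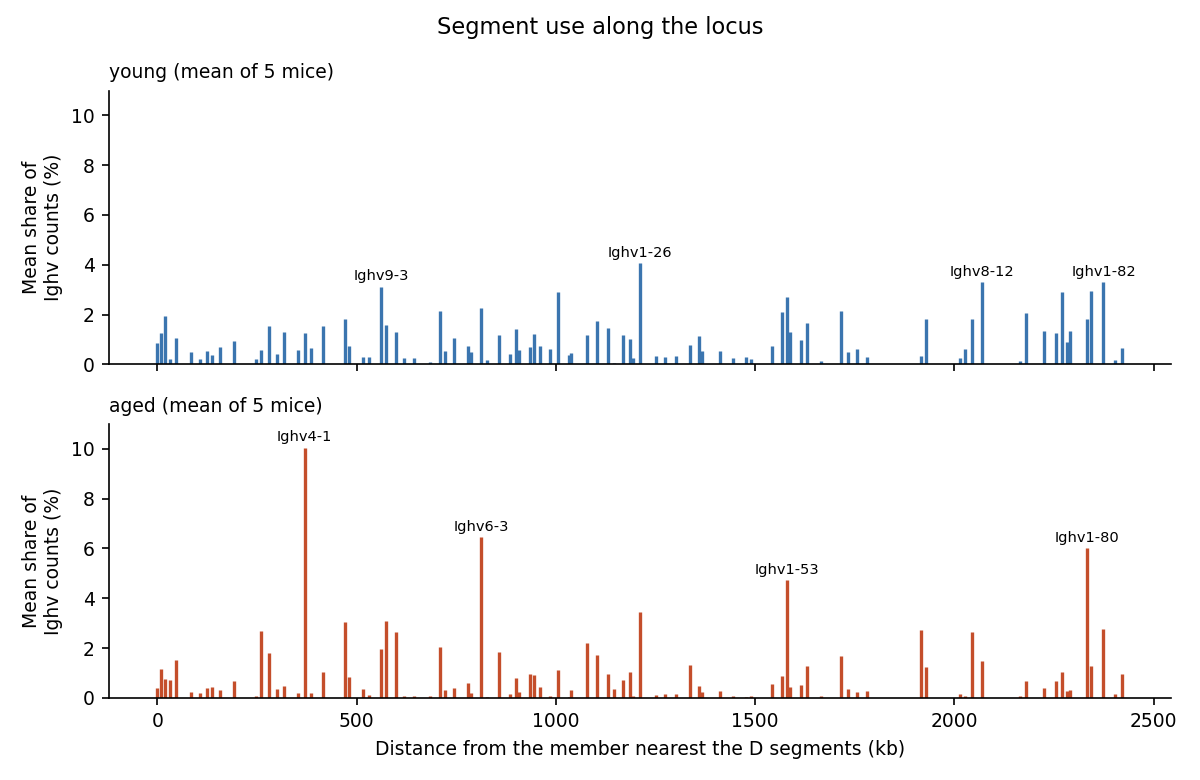
Mean share of Ighv counts (vertical axis, percent) of each of the 95 members against its distance from the member nearest the D segments (horizontal axis, kb), in young (top) and aged (bottom) mice, with 5 mice each. The highest young bar is Ighv1-26 at 4.06% and the highest aged bar is Ighv4-1 at 10.05%, and the tall aged bars are spread along the locus.

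The other genes of the antibody locus are given from textbook lists. Of the 8 heavy chain constant genes, which set the antibody class, 7 were tested and 4 were called higher in aged bone, and their median log2 fold change was 3.08. Ighg2c rose from 0.704 ± 0.441 to 13.6 ± 7.89 CPM (log2 fold change 4.24, edgeR adjusted p = 0.000752) and Ighg3 from 0.508 ± 0.195 to 9.03 ± 7.14 CPM (4.12, adjusted p = 0.00307). Igha, of the class made at mucosal surfaces, rose from 24.02 ± 3.80 to 202.3 ± 153.8 CPM (3.08, adjusted p = 0.00395). Ighg2b was called as well (3.99, edgeR adjusted p = 0.0116). Ighm, the first class a B cell makes, was at 224.4 ± 6.95 CPM in young and 526 ± 363.7 CPM in aged mice and did not pass (edgeR adjusted p = 0.0731). Ighd, which marks mature naive B cells, was at 33.8 ± 6.35 and 38.4 ± 5.67 CPM (edgeR adjusted p = 0.426).

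Of the D and J segments, 4 of 18 were tested and 0 were called, at a median log2 fold change of 0.15, and their summed level was 6.11 to 8.89 CPM in young and 4.78 to 10.9 CPM in aged mice. Of the light chain variable segments, which pair with the heavy chain, 43 of 103 were tested and 7 were called higher (19 by DESeq2 and 4 by limma-voom), at a median log2 fold change of 1.40. Their summed level was 26.8 to 35.5 CPM in young and 32.4 to 204.4 CPM in aged mice. As for Ighv, aged 2 was highest and aged 3 lowest of the aged mice. Igkv4-55 rose from 0.185 ± 0.112 to 9.62 ± 11.4 CPM (log2 fold change 5.68, edgeR adjusted p = 0.00341). The 44 Ighv pseudogenes were low, at 2.93 to 3.78 CPM summed in young and 2.40 to 3.72 CPM in aged mice, with 0 of 2 tested genes called and a median log2 fold change of -0.17. Of the D and J segments and of the pseudogenes, 0 passed at an unadjusted p under 0.05, and 0 were called by DESeq2 or limma-voom.

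Calls among genes of V(D)J recombination and of B cell progenitors were all lower in aged bone. Rag1, a subunit of the recombinase, fell from 45.8 ± 11.5 to 13.8 ± 4.67 CPM (log2 fold change -1.74, edgeR adjusted p = 0.00186). Rag2, its partner, fell from 2.67 ± 0.67 to 0.803 ± 0.286 CPM (-1.74, adjusted p = 0.00195). Of 12 recombination genes 3 were called lower and 0 higher (median log2 fold change -0.22). Of 13 tested B cell progenitor markers 9 were called lower and 0 higher (median -0.73), Rag1 and Rag2 being in both lists, and at an unadjusted p under 0.05 no gene of either list was higher. The progenitor markers summed to 363.5 to 526.4 CPM in young and 264.1 to 347.5 CPM in aged mice, without overlap.

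Markers of antibody-secreting cells held calls in both directions. Jchain, which links secreted IgM and IgA, rose from 7.65 ± 2.55 to 54.8 ± 39.2 CPM (log2 fold change 2.84, edgeR adjusted p = 0.00517). Derl3, of the disposal of misfolded protein, rose from 2.21 ± 0.35 to 4.55 ± 2.21 CPM (1.05, adjusted p = 0.0433). Sdc1 (CD138), a plasma cell surface marker that other cells also carry, fell from 42.1 ± 6.07 to 24.8 ± 5.71 CPM (-0.76, adjusted p = 0.0118). Of 13 tested plasma cell markers 2 were called higher and 1 lower (median log2 fold change 0.12), and 3 were higher and 4 lower at an unadjusted p under 0.05. Their summed level was 599.6 to 902.3 CPM in young and 580.2 to 855.6 CPM in aged mice. Of 15 genes of antibody folding and secretion 2, Jchain and Derl3, were called higher and 0 lower (median log2 fold change 0.09), and 4 were higher and 1 lower at an unadjusted p under 0.05. Of 6 genes of class switching and mutation (median log2 fold change -0.22) and of 10 mature B cell markers (median 0.23) 0 were called by edgeR, DESeq2 or limma-voom. At an unadjusted p under 0.05, 3 switching genes were lower, and 3 mature B cell markers were higher and 2 lower. The mature B cell markers summed to 402.7 to 513.8 CPM in young and 430.7 to 675.6 CPM in aged mice. Neutrophil (8 tested), red cell precursor (7) and skeletal muscle (7) lists held 0 calls by edgeR (DESeq2 called 1 red cell gene lower), with medians of 0.29, -0.40 and 0.48 and with 0, 1 and 1 genes at an unadjusted p under 0.05. In contrast, 3 of 8 osteoblast and osteocyte genes were lower, Bglap2 (osteocalcin) among them (log2 fold change -1.97, edgeR adjusted p = 0.0120). Whether these moves bear on the use of the segments was not tested.

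At the lower limit of the rule, the members with the fewest counts were Ighv6-4 (21 over the 10 libraries), Ighv3-5 (26) and Ighv7-4 (27), and the rows just under it were Ighv1-37 (19), Ighv8-9 (17) and Ighv1-62-2 (17). None of these 6 held more than 10 counts in a library. Since the rule used the sum over all libraries, it favoured segments that were high in any library, and the aged libraries held more Ighv counts.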

How the data were processed

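RNA of flushed, pulverized femur from 5 young and 5 aged mice was sequenced with 1 library per mouse. The authors deposited raw read counts for each gene, from reads trimmed by Cutadapt, mapped with STAR (mouse genome GRCm38.p6) and assigned by featureCounts. The labels name another genome build, while the member coordinates match mouse GENCODE vM21. The sources used here do not give the annotation release, the use of strand or the handling of reads that match several genes, nor say that a label number pairs mice.

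All genes were fitted with edgeR 4.0.16 in R 4.3.3 (minimum count 10, minimum total 15, TMM, robust quasi-likelihood test, Benjamini-Hochberg) and called at 1.5-fold or more with an adjusted p up to 0.05. Values per mouse were compared by exact two-sided permutation (252 splits, smallest p 0.00794). Sequences were matched by gene identifier and aligned with Biopython 1.88. Steps were tested on simulated data. Alternatives were RLE and total count scaling, other filters, DESeq2 1.42.0, limma-voom (limma 3.58.1), a replicate block, other member rules and leaving out libraries. Leaving out aged 2 together with aged 4 was added after the data were seen.

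The segments and gene lists were chosen with earlier results of these data known. Members named are the 5 with the highest mean share per kilobase in each group, each library's leader, called members, the 3 largest and 3 smallest fold changes, segments with known use, those nearest the count limit, and those with at least 80% of their counts in 1 library. Of each list up to 2 genes with the smallest p are named. Ighd, Ighm, Igha, Ighg2b, segments at or over 5% of a library and nearest members were added after their values were seen. Depth was 31788232 to 45075335 counts per library, and intervals cover counting error only.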

Additional observations from a re-analysis of the deposited data

Results flagged for a closer look

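Of 64 groups of 5 values tested, 9 held a value that stood far from the other 4 by Dixon's criterion. For groups picked without regard to their values chance would give about 1 in 20, but many of these segments were named for a high value in a single library, so that rate does not apply to them. Of the 9, 6 were in aged 2. Aged 2 was expected to show 66.9 segments at the common depth, below the other aged mice, and its leading segment held 40.9% of its Ighv counts. Some segments were far higher there than in the other aged mice, with Ighv4-1 at 135.2 CPM, Ighv1-80 at 70.3 CPM, Ighv1-15 at 20.3 CPM and Ighv7-1 at 1.11 CPM. Aged 1 stood out for Ighv7-3 at 8.42 CPM. In young mice, young 4 stood out for Ighv1-9 at 2.17 CPM and young 3 for Ighv1-78 at 0.867 CPM.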

How the results depend on the processing

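The lower effective number of segments, the lower number expected at the common depth and the higher leading share kept their direction and stayed past the threshold under every alternative run (17, 14 and 15). The number of segments called higher was 7, and it was 4 with total count scaling, 13 with DESeq2 (all 7 among them), 4 with limma-voom and 3 to 10 when 1 library was left out. The 2.64% of all tested genes called higher belongs to the main fit. No such share was taken for the other fits, so their counts cannot be set against it. With the number as a replicate block it was 5, all among the 7. The same-numbered mice did not deviate together (correlations -0.154 to 0.169, and 1 of 5 numbers best with its own). These few correlations over all genes cannot exclude that same-numbered mice were prepared together. No segment was called lower under any alternative. The difference in summed level (91.7 CPM) no longer passed with total count scaling (94.2 CPM, exact permutation p = 0.0714) or without aged 2 and aged 4 (18.4 CPM, exact permutation p = 0.0714). When 1 library was left out it ran from 40.8 (aged 2) to 113.7 CPM. The difference in the share far from the D segments (-8.44 percentage points) no longer passed with counts per length (-7.68, exact permutation p = 0.0556) or without aged 2 and aged 4 (-6.03, exact permutation p = 0.143). When 1 library was left out it ran from -10.5 to -6.75. The Ighv1 family difference (-7.61 percentage points) ran from -8.68 to -6.42 when 1 library was left out, and passed without aged 3 (adjusted exact permutation p = 0.0476). The causes were not tested. Between 1028 and 1827 Ighv counts per young library over 95 segments left 41 members untested.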
